A study of Mus musculus with 4 samples.

Results

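The liver and gut miRNAs miR-122-5p, miR-192-5p, miR-215-5p and miR-194-5p were examined as cell-free miRNAs (cf-miRNAs) in the plasma of aged and young mice. They were chosen by their identifiers, MIMAT0000246, MIMAT0000517, MIMAT0000904 and MIMAT0000224, and are 4 of the 1265 probes of the chip. All 4 had a value on all 4 arrays, as did 362 probes in all. The aged group was 2 male C57BL6/J mice of 23 to 24 months, and the young group was 2 male C57BL6/J mice of 6 to 7 weeks. The labels name no treatment. Blood was drawn by cardiac puncture into EDTA and spun to plasma, and the RNA of each mouse was labelled with the dye Hy5 and hybridized to its own 3D-Gene mouse miRNA chip. Each value is a signal intensity on a linear scale, which the authors had brought to a median of 25 over the values listed on an array.

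MiR-122 is the most abundant miRNA of hepatocytes, where it takes part in the control of lipid and cholesterol metabolism, and its release into plasma is a known marker of liver injury. MiR-192, miR-215 and miR-194 are abundant in the epithelium of the intestine, and in liver and kidney. MiR-192 and miR-215 form a seed family, which means that they share the bases that pair with target mRNAs, and both respond to p53 in human cells. MiR-194 is made from the same clusters as these and is linked to the differentiation of intestinal epithelium. Plasma collects RNA from many tissues, so more releasing cells and more RNA released per cell cannot be told apart in these values.

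The mature sequences of the gut cluster miRNAs are shown because their likeness bears on how far the probes can be read separately. They are from RefSeq (GRCm38.p6), which matched 3 of the 4 by name, and the seed, bases 2 to 8, is in capitals.
miR-192-5p: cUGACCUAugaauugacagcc
miR-215-5p: aUGACCUAugauuugacagac
miR-194-5p: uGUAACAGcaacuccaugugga
MiR-192-5p and miR-215-5p had the same seed and were identical at 18 of 21 bases. The differences, with the base of miR-192-5p first and counted from 1 at the 5′ end, were C1A, A12U and C20A. Among the 1679 mature miRNA names of the table, no other carried this seed, and the closest other sequence to miR-192-5p, miR-3061-3p, was 7 edits away. The probes of miR-192-5p and miR-215-5p may therefore share part of their signal, and whether they do was not tested. MiR-194-5p had a seed of its own, and its closest sequences were 8 edits away.

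These miRNAs come from 2 paired loci. On chromosome 19, the hairpin Mir194-2 (6264643 to 6264728) lies 115 bases before Mir192 (6264844 to 6264932) on the plus strand, and no other annotated gene overlaps them. On chromosome 1, Mir194-1 (185313319 to 185313385) lies 195 bases before Mir215 (185313581 to 185313692), also on the plus strand and within the span of Iars2, the gene of a mitochondrial isoleucyl-tRNA synthetase. The table does not give exons or introns. Mir194-1 and Mir194-2 give the same mature miR-194-5p, so its probe reads the products of both loci together, while miR-192-5p and miR-215-5p each belong to 1 locus. Mir122 is on chromosome 18 (65248861 to 65248926), where the table also lists Mir122b.

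None of the 4 miRNAs passed an adjusted p of 0.05 between the ages. On the deposited scale, the signals of miR-192-5p and miR-215-5p were about 2-fold higher in aged plasma, with no overlap between the mice of the ages. Aged signals likewise lay wholly above young ones for 72 of the 362 miRNAs (19.9%). The signals of miR-122-5p and miR-194-5p overlapped between the ages. The arrays were not on 1 common scale. The probes shared by all arrays had median signals of 62.1 and 56.0 in aged mice 1 and 2, and of 67.9 and 35.2 in young mice 1 and 2, and young mouse 2 also had the fewest listed probes (439, against 563 to 620 on the other arrays). The median log2 difference of the 362 miRNAs, aged minus young, was 0.31, and 246 of them were higher and 116 lower.

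**Figure D1:**
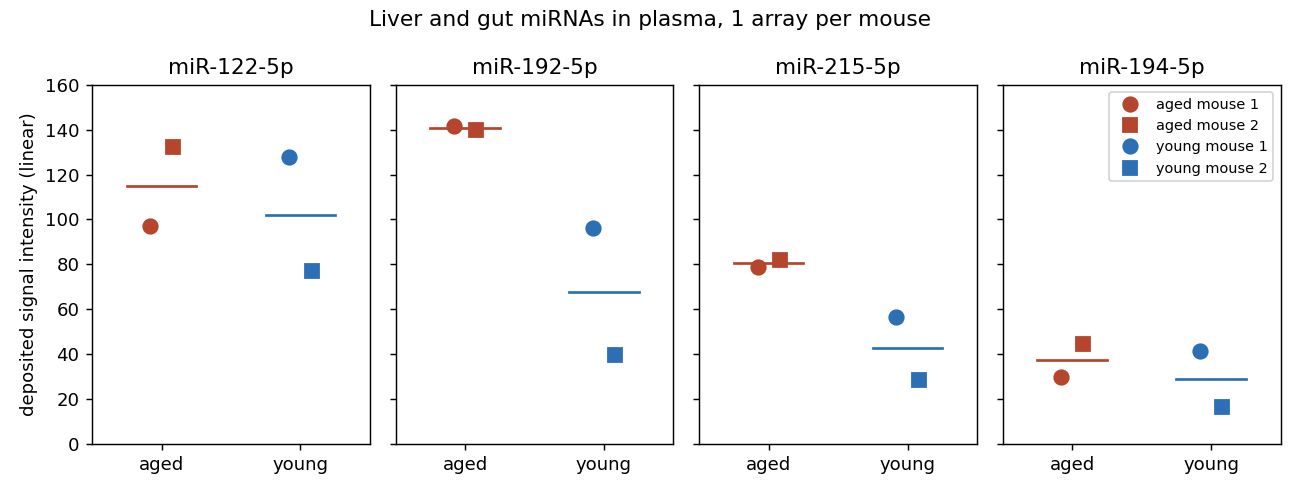
Deposited signal intensity (linear, vertical axis) of the 4 miRNAs in aged (left) and young (right) plasma; each point is the array of 1 mouse and each bar the mean of 2 mice. The aged points of miR-192-5p and miR-215-5p lie above both young points, as for 19.9% of the 362 miRNAs listed on every array. Those of miR-122-5p and miR-194-5p do not.

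MiR-192-5p had a signal of 141.6 in aged mouse 1 and 139.8 in aged mouse 2, against 96.0 in young mouse 1 and 39.5 in young mouse 2. The aged arrays were nearly equal, at 1.01-fold, while the young arrays differed by 2.43-fold. The mean was 141 ± 1.27 in aged and 67.8 ± 40.0 in young plasma (SD, n = 2 mice each), a ratio of 2.08. The log2 difference was 1.19 (standard error 0.60, 95% interval 0.02 to 2.37, unadjusted p = 0.047, adjusted p = 0.81 from limma). It was larger than that of 96.1% of the 362 miRNAs.

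MiR-215-5p, its partner in the seed family, had a signal of 78.9 and 81.9 in aged mice 1 and 2, against 56.7 and 28.6 in young mice 1 and 2. As for miR-192-5p, the lowest value was that of young mouse 2 and the aged mice were close to each other. The mean was 80.4 ± 2.12 in aged and 42.7 ± 19.9 in young plasma (SD, n = 2 each), a ratio of 1.89, and the log2 difference was 1.00 (standard error 0.60, 95% interval -0.18 to 2.17, adjusted p = 0.84 from limma).

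MiR-194-5p, which is processed from both loci, had a signal of 29.9 and 44.5 in aged mice 1 and 2, against 41.3 and 16.3 in young mice 1 and 2. Young mouse 1 lay between the aged mice, so the groups overlapped. The mean was 37.2 ± 10.3 in aged and 28.8 ± 17.7 in young plasma (SD, n = 2 each), and the log2 difference was 0.49 (standard error 0.60, 95% interval -0.68 to 1.67, adjusted p = 0.88 from limma). Its signal in young mouse 2 was only 2.01 times the lowest value listed on that array.

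MiR-122-5p, the hepatocyte miRNA, had a signal of 96.9 and 132.4 in aged mice 1 and 2, against 127.7 and 76.8 in young mice 1 and 2. Again young mouse 1 lay between the aged mice. The mean was 115 ± 25.1 in aged and 102 ± 36.0 in young plasma (SD, n = 2 each), and the log2 difference was 0.19 (standard error 0.60, 95% interval -0.98 to 1.37, adjusted p = 0.89 from limma). The interval is wide and runs from a clearly lower to a clearly higher level in aged plasma. The difference was larger than that of 41.4% of the 362 miRNAs, and so lay slightly below the middle of these 362.

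The counts over all miRNAs give the background for these values. Both aged arrays lay above both young arrays for 72 of the 362 miRNAs (19.9%), and this held for 2 of the 4 liver and gut miRNAs. An unadjusted p under 0.05 with a higher aged signal was found for 14 miRNAs (3.87%), and miR-192-5p was 1 of these. At an adjusted p of 0.05, 0 miRNAs were higher (0.0%) and 1 was lower (0.276%) in limma. The split moved with the scaling of the arrays, to 4 higher and 12 lower when each array was set to the same median over the shared miRNAs, and to 6 higher and 12 lower when the median was that of the brightest miRNAs. None of the 4 liver and gut miRNAs was among them. With only 4 miRNAs, a count of 2 cannot be set apart from this background.

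**Figure D2:**
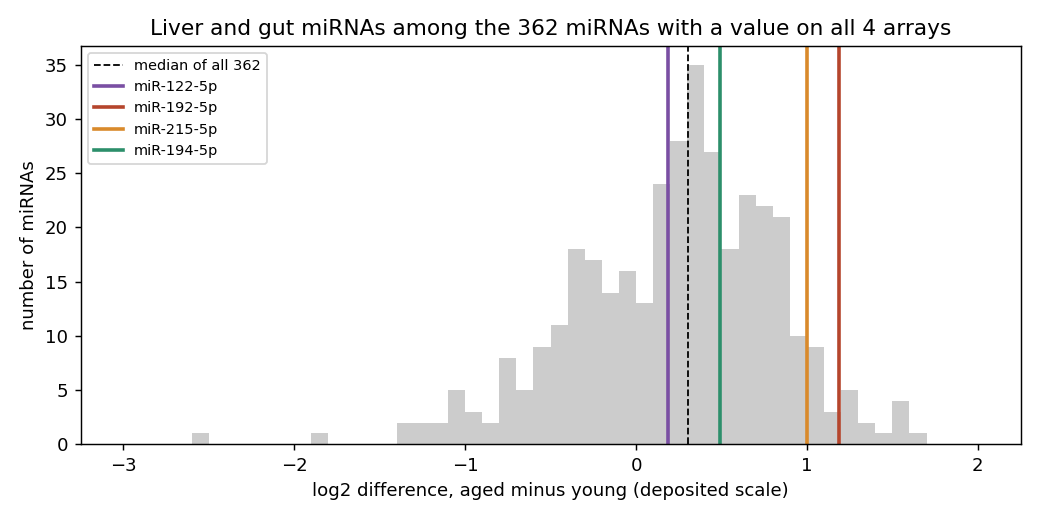
Number of miRNAs (vertical axis) by log2 difference of deposited signal, aged minus young (horizontal axis), for the 362 miRNAs listed on every array. MiR-192-5p (1.19) and miR-215-5p (1.00) lie in the upper tail, and miR-194-5p (0.49) and miR-122-5p (0.19) lie on either side of the median of 0.31 (dashed line).

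The rank of a probe on its own array does not depend on how the array was scaled. MiR-192-5p ranked 113th of 563 listed probes in aged mouse 1 and 121st of 578 in aged mouse 2, against 162nd of 620 in young mouse 1 and 172nd of 439 in young mouse 2. MiR-215-5p ranked 160th in both aged mice, against 199th and 205th in young mice 1 and 2. Both probes thus stood nearer the bright end of the list on the aged arrays than on the young arrays. How many other probes did so by rank was not counted. By deposited signal, both aged arrays were above both young arrays for 72 of the 362 miRNAs (19.9%). MiR-122-5p ranked 146th and 126th in aged mice 1 and 2, against 139th and 133rd in young mice 1 and 2, with the young mice between the aged ones. MiR-194-5p ranked 250th and 210th in aged mice 1 and 2, against 237th and 288th in young mice 1 and 2.

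The size of the differences varied with the mice compared. Between the mice numbered 1, the log2 difference, aged minus young, was 0.56 for miR-192-5p, 0.48 for miR-215-5p, -0.47 for miR-194-5p and -0.40 for miR-122-5p. Between the mice numbered 2, it was 1.82 for miR-192-5p, 1.52 for miR-215-5p, 1.45 for miR-194-5p and 0.79 for miR-122-5p. All 4 miRNAs had the larger difference between the mice numbered 2, a comparison that changes both the aged and the young array. The median signals of the 362 shared miRNAs went the same way. They were 62.1 and 67.9 in aged and young mouse 1, and 56.0 and 35.2 in aged and young mouse 2. The larger difference was thus not read as a trait of these 4 miRNAs, and its share over all 362 was not counted. When the medians of the shared miRNAs were set equal on all arrays, miR-192-5p had scaled signals of 122 and 134 in aged mice 1 and 2, against 75.9 and 60.3 in young mice 1 and 2. MiR-215-5p had 68.2 and 78.6 in aged mice 1 and 2, against 44.8 and 43.7 in young mice 1 and 2. The ages stayed separate for both miRNAs on this scale, as for 79 of the 362 miRNAs with a higher aged signal (21.8%). Between the mice numbered 1 and those numbered 2, the log2 differences on this scale were 0.69 and 1.15 for miR-192-5p and -0.34 and 0.78 for miR-194-5p. Over both mice of each age they were 0.92 for miR-192-5p (standard error 0.42, adjusted p = 0.25 from limma) and 0.73 for miR-215-5p (standard error 0.42, adjusted p = 0.42 from limma). MiR-194-5p was at 0.22 and miR-122-5p at -0.08 (standard error 0.42 each), so the sign of miR-122-5p turned with the scaling. With quantile normalization the differences were 1.01 for miR-192-5p (adjusted p = 0.31 from limma), 0.77 for miR-215-5p (adjusted p = 0.32), 0.28 for miR-194-5p and -0.01 for miR-122-5p.

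**Figure D3:**
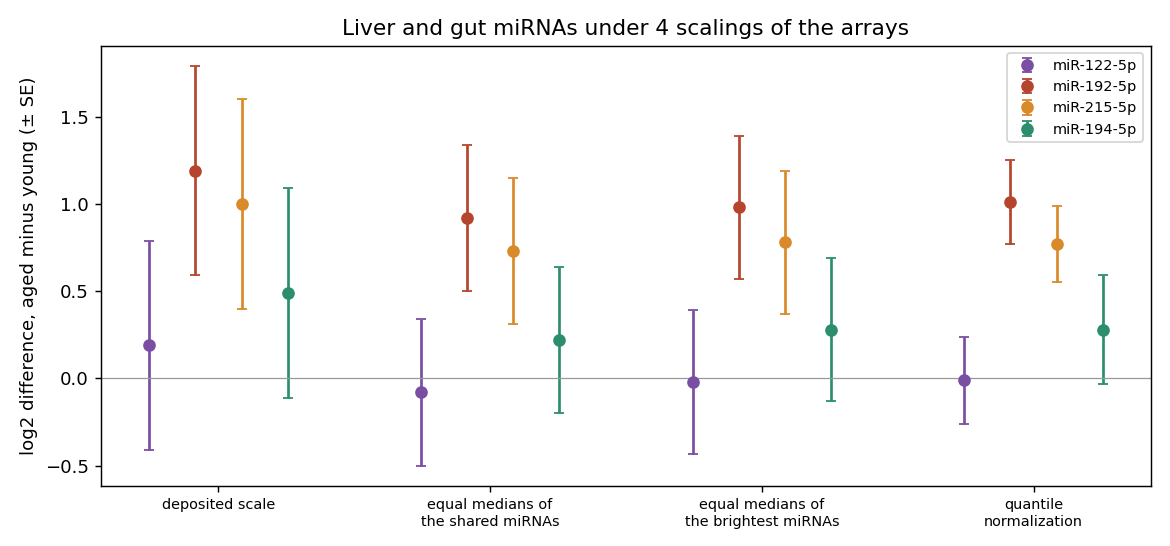
Log2 difference, aged minus young (vertical axis; points with bars of ± 1 standard error from limma), of the 4 miRNAs on the deposited scale and after 3 other scalings of the arrays. MiR-192-5p stays between 0.92 and 1.19 and miR-215-5p between 0.73 and 1.00, while miR-122-5p lies at 0.19 on the deposited scale and between -0.08 and -0.01 on the others.

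The ratio between the signals of 2 probes on 1 array is free of the scale of that array, so it was used to ask whether the 4 miRNAs differed alike between the ages. The level of such a ratio also reflects the brightness of the probes and was read only between arrays. The log2 ratio of miR-192-5p over miR-122-5p was 0.55 and 0.08 in aged mice 1 and 2, against -0.41 and -0.96 in young mice 1 and 2. The mean was 0.31 ± 0.33 in aged and -0.69 ± 0.39 in young plasma (SD, n = 2 each), a difference of 1.00. The ratio was higher in each aged mouse than in each young mouse. The ages did not overlap, in either direction, for 48.4% of all pairs of the 362 probes. In an exact permutation test (two-sided) the p was 0.333, the smallest that 2 mice per age can give.

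The log2 ratio of miR-192-5p over miR-194-5p, which share the locus on chromosome 19, was 2.24 and 1.65 in aged mice 1 and 2, against 1.22 and 1.28 in young mice 1 and 2. The young mice were close to each other here, although their deposited signals differed widely. The difference between the ages was 0.70. For miR-215-5p over miR-194-5p, the pair on chromosome 1, the log2 ratio was 1.40 and 0.88 in aged mice 1 and 2, against 0.46 and 0.81 in young mice 1 and 2, a difference of 0.51 with aged mouse 2 and young mouse 2 almost level. Since the miR-194-5p probe reads both loci, neither ratio belongs to 1 locus alone.

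The log2 ratio of miR-192-5p over miR-215-5p differed by only 0.19 between the ages, the smallest difference of the 6 pairs. It was 0.84 and 0.77 in aged mice 1 and 2, against 0.76 and 0.47 in young mice 1 and 2. Young mouse 2 lay below the other arrays, which were within a narrow range. The other pairs were miR-215-5p over miR-122-5p, with a difference of 0.80, and miR-194-5p over miR-122-5p, with a difference of 0.30 and overlapping ages. The ages did not overlap for 5 of the 6 pairs, and the same was true of 48.4% of all pairs of the 362 probes. The gap was narrow for miR-192-5p over miR-215-5p (0.77 in aged mouse 2, 0.76 in young mouse 1). It was also narrow for miR-215-5p over miR-194-5p (0.88 in aged mouse 2, 0.81 in young mouse 2). The 6 pairs were made from 4 probes and are not independent, so the count of 5 cannot be set apart from this background. In an exact permutation test (two-sided, 2 aged against 2 young mice) the p was 0.333 for these 5 pairs, which is the smallest this design can give, and 0.40 after Benjamini-Hochberg adjustment over the 6 pairs. For miR-194-5p over miR-122-5p the exact permutation p was 0.667.

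**Figure D4:**
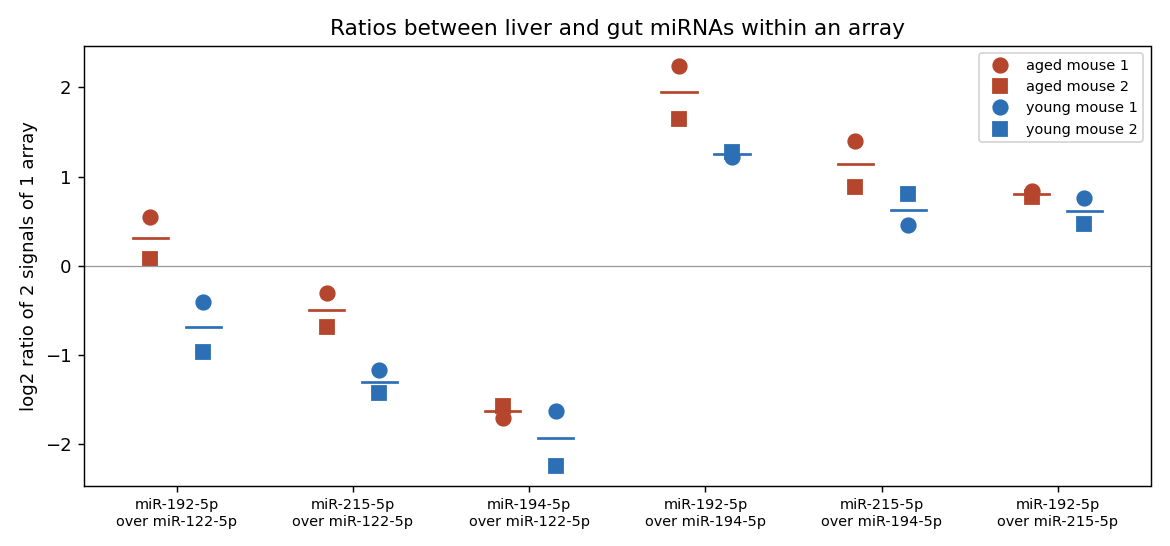
Log2 ratio of 2 signals of the same array (vertical axis) for the 6 pairs of the 4 miRNAs; each point is 1 mouse, aged left and young right within a pair, and bars are means of 2 mice. The ages separate most for miR-192-5p over miR-122-5p (difference 1.00), overlap for miR-194-5p over miR-122-5p (0.30), and have the smallest difference for miR-192-5p over miR-215-5p (0.19).

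The likeness of patterns was measured over the 4 arrays as the root mean square distance between log2 signals, each centred on its own mean. MiR-215-5p was the 2nd nearest of the other 361 miRNAs to miR-192-5p, at a distance of 0.145, where the median miRNA was at 0.524. Seen from miR-215-5p, miR-192-5p was the 4th nearest. MiR-194-5p was less close to its cluster partners, but nearer than the median miRNA. It ranked 93rd from miR-192-5p, at 0.409, and 109th from miR-215-5p, at 0.337, where the median was 0.45. Seen from miR-194-5p, miR-122-5p (57th) was nearer than miR-215-5p (101st) and miR-192-5p (170th). MiR-122-5p ranked 197th from miR-192-5p. These distances rest on 4 arrays that share their scale with every probe, and are descriptions only.

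Of the named miRNAs, miR-1900 was the nearest to miR-192-5p, at a distance of 0.0899, and miR-223-3p, which is abundant in the myeloid lineage, was the 3rd nearest to both miR-192-5p and miR-215-5p. MiR-223-3p had a signal of 429.9 and 499.2 in aged mice 1 and 2, against 269.1 and 141.4 in young mice 1 and 2. It was the 1 named marker of the 5 leukocyte miRNAs listed for comparison, and it was separate between the ages in the same direction as miR-192-5p and miR-215-5p. The muscle miRNAs miR-133a-3p, miR-133b-3p and miR-1a-3p, which are 3 of 6 muscle markers, went the other way, with summed signals of 215.6 and 478.6 in aged mice 1 and 2, against 1394.5 and 557.5 in young mice 1 and 2. Names other than those of the 4 miRNAs came from a table in the paper of the lowest and highest aged over young ratios. The named markers were thus bound to differ between the ages, and their directions say nothing of the unnamed markers. The part of blood cell or muscle RNA in these results was not tested. For miR-122-5p and miR-194-5p the nearest miRNAs carry only identifiers, the first being MIMAT0014908 at a distance of 0.0461 and MIMAT0020622 at 0.112. Of the 48 names on the lists of other liver, gut, kidney, pancreas, blood cell, vascular and muscle miRNAs, 4 could be tied to an identifier, so the other liver and gut miRNAs were not analysed here.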

How the data were processed

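The intensities were deposited by the authors as linear 1-colour signals of 3D-Gene mouse miRNA ver.19 chips, 1 array per mouse, scaled to a median of 25 of the listed values of each array. Probes without a listed value are blank. For these values, the listing rule, any background subtraction and the way of scaling are not given in the sources used. A further 8 columns of raw and background-subtracted intensities name no mouse and were not used. The number of arrays limits the precision.

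The log2 intensities (no pseudocount) of the 362 probes listed on all 4 arrays were compared, aged against young, in limma 3.58.1 (R 4.3.3; lmFit and eBayes without a block). P-values were adjusted over these 362 by the Benjamini-Hochberg method, with a threshold of 0.05. The fit gave every miRNA the same standard error, since eBayes estimated 1 spread common to all. The step was also run on simulated data without a shift between arrays or missing values, so that run does not test the scaling. Python 3.11.15 with numpy 2.4.6, pandas 2.3.3, scipy 1.17.1 and matplotlib 3.10.9 was used for ranks, ratios, exact permutation tests and plots. The identifiers of the 4 miRNAs and their names were given with the selection. A further 24 names were taken from a table of array signals in the paper by a match within 0.05 on all 4 arrays. That table holds only miRNAs that the paper gives as lowest or highest in the ratio of aged over young. No other identifier could be paired with a name from the sources used. The text names the 4 miRNAs, the 3 nearest to each in pattern where they have a name, and up to 4 of each list of markers. The miRNAs and lists were chosen with earlier results of these data known. Alternatives were 3 other scalings, a filter on low signals, filled missing values, a pseudocount of 16, a trended and robust variance, the methods' test, left-out arrays and a replicate block.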

Additional observations from a re-analysis of the deposited data

How the results depend on the processing

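MiR-192-5p and miR-215-5p kept a positive difference under every alternative run, at 0.92 to 1.19 and 0.73 to 1.00 with 2 mice per age (adjusted p from limma or the methods' test 0.19 to 0.89 and 0.32 to 0.93). With 1 array left out they ran from 0.55 (without young mouse 2) to 1.83 (without young mouse 1) and from 0.50 to 1.49, and only without young mouse 1 was the adjusted p from limma under 0.05, at 0.011 and 0.043. That fit takes its spread from the 2 aged mice alone, called 49 miRNAs higher and 1 lower of 362, and had a median difference of 0.73 over all of them. MiR-122-5p had a negative difference with quantile normalization (-0.01), equal medians of the shared miRNAs (-0.08) and equal medians of the 439 brightest miRNAs of each array (-0.02), and with 1 array left out it ran from -0.17 (without young mouse 2) to 0.56, and was -0.03 without aged mouse 2. MiR-194-5p ran from -0.18 (without young mouse 2) to 1.16, and the filter on low signals left it out. Left-out arrays moved the log2 ratio differences to 0.72 to 1.27 for miR-192-5p over miR-122-5p, 0.61 to 1.00 for miR-215-5p over miR-122-5p, -0.01 (without young mouse 2) to 0.60 for miR-194-5p over miR-122-5p, 0.40 to 1.00 for miR-192-5p over miR-194-5p, 0.25 to 0.77 for miR-215-5p over miR-194-5p and 0.05 to 0.34 for miR-192-5p over miR-215-5p. Of all miRNAs, 1 passed the threshold in limma on the deposited scale, 16 (4 higher, 12 lower) with equal medians of the shared miRNAs, 18 (6 higher, 12 lower) with the brightest miRNAs, 2 (both lower) with filled missing values, 0 with quantile normalization (53 at an unadjusted p under 0.05), 0 with a trended and robust variance (15) and 0 with the methods' test (8), and from 0 to 50 (without young mouse 1) with 1 array left out. The causes of these shifts were not tested. The paper calls the mouse numbers experiments, without saying what the arrays of an experiment shared, and the main comparison does not pair them. Deviations of same-numbered arrays had a correlation of 0.337 across miRNAs. With the replicate block 1 miRNA passed, and miR-192-5p was at 1.19 (adjusted p = 0.57 from limma), miR-215-5p at 1.00 (0.67), miR-194-5p at 0.49 (0.82) and miR-122-5p at 0.19 (0.87).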
